A study of Mus musculus with 11 samples.

Results

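The genes described here are 41 genes of DNA repair: the Fanconi anaemia genes, the genes of homologous recombination, and the end joining and damage signalling genes that act beside them. They were chosen by name from their known functions, with earlier results of these data known. All 41 were found among the 12647 genes of the count table. Their RNA was measured by RNA-seq of LSKs (cells sorted as Lin-Sca1+Kit+), the bone marrow fraction that holds hematopoietic stem cells and multipotent progenitors. The mice were young, tumor free, and of C57BL/6 background, and each genotype has 3 libraries. The p53+/+ group is HUPKI mice, in which a human p53 sequence was knocked into the mouse Trp53 locus, so that these controls are wild type for p53 function but carry a humanized allele. The p53R248W/+ mice are heterozygous for the R248W hot-spot mutation on the same kind of knock-in allele, and the p53-/- mice lack p53. Whether the p53-/- mice derive from the humanized line is not given in the sources used here, and if they do not, the allele's origin and the loss of p53 cannot be told apart. Nothing in the labels ties a library to an individual animal or to its sex, so the p-values measure the spread between these libraries, which may be partly technical.

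The Fanconi pathway repairs crosslinks that tie the strands of DNA together. Its core complex is a ubiquitin ligase that marks the FANCD2 and FANCI pair at a stalled replication fork, USP1 removes the mark, and homologous recombination then completes the repair from the sister chromatid. Homologous recombination works in S and G2 phase, when a sister chromatid exists, and many of its genes are transcribed mainly in cycling cells, whereas non-homologous end joining works throughout the cycle. Loss of the Fanconi pathway causes bone marrow failure, and most adult hematopoietic stem cells are quiescent.

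Total counts ranged from 18021375 to 29750702 per library. Replicate 1 of p53R248W/+ stood apart from the other libraries of its genotype, with a chi-square of 147 and 151 per gene against them, where the other pairs of one genotype gave 24.6 to 73.9. Values for single genes are CPM, which is the count scaled to the library's total and corrected by TMM factors, and the adjusted p-values are from edgeR's quasi-likelihood test over the 12625 genes tested, which include all 41 repair genes. Trp53, the targeted gene, gave 125, 207, and 376 CPM in p53+/+ LSKs, 219, 240, and 235 CPM in p53R248W/+ LSKs, and 129, 127, and 112 CPM in p53-/- LSKs. The reads from the p53-/- libraries thus overlapped those from p53+/+, and a count over the whole gene does not show which part of the locus they come from. Cdkn1a, the cell cycle inhibitor that is the best known p53 target, was lower in p53-/- LSKs (log2 fold change −2.07, adjusted p = 0.00914). Kit, Ly6a, and Cd34, which define or mark LSKs, summed to between 2029 and 2904 CPM in every library.

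In p53-/- LSKs, 7 of the 41 repair genes were lower than in p53+/+ LSKs at an adjusted p below 0.05, and none was higher. Over all genes tested, 2.25% were lower at that threshold. The 7 genes were Brca2, Clspn, Blm, Rad50, Rbbp8, Usp1, and Prkdc. At an unadjusted p below 0.05, 20 repair genes were lower and 2, Xrcc4 and Chek2, were higher, where 12.5% and 10.9% of all genes were lower and higher. For 18 genes all 3 p53-/- libraries lay below all 3 p53+/+ libraries, against 16.0% of all genes. The median log2 fold change of the 41 genes was −0.54, with 28 genes lower and 13 higher, and the median over all genes was −0.00. These are measurements of bulk RNA, in which fewer cells that express a gene and less RNA per cell cannot be told apart.

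**Figure D1:**
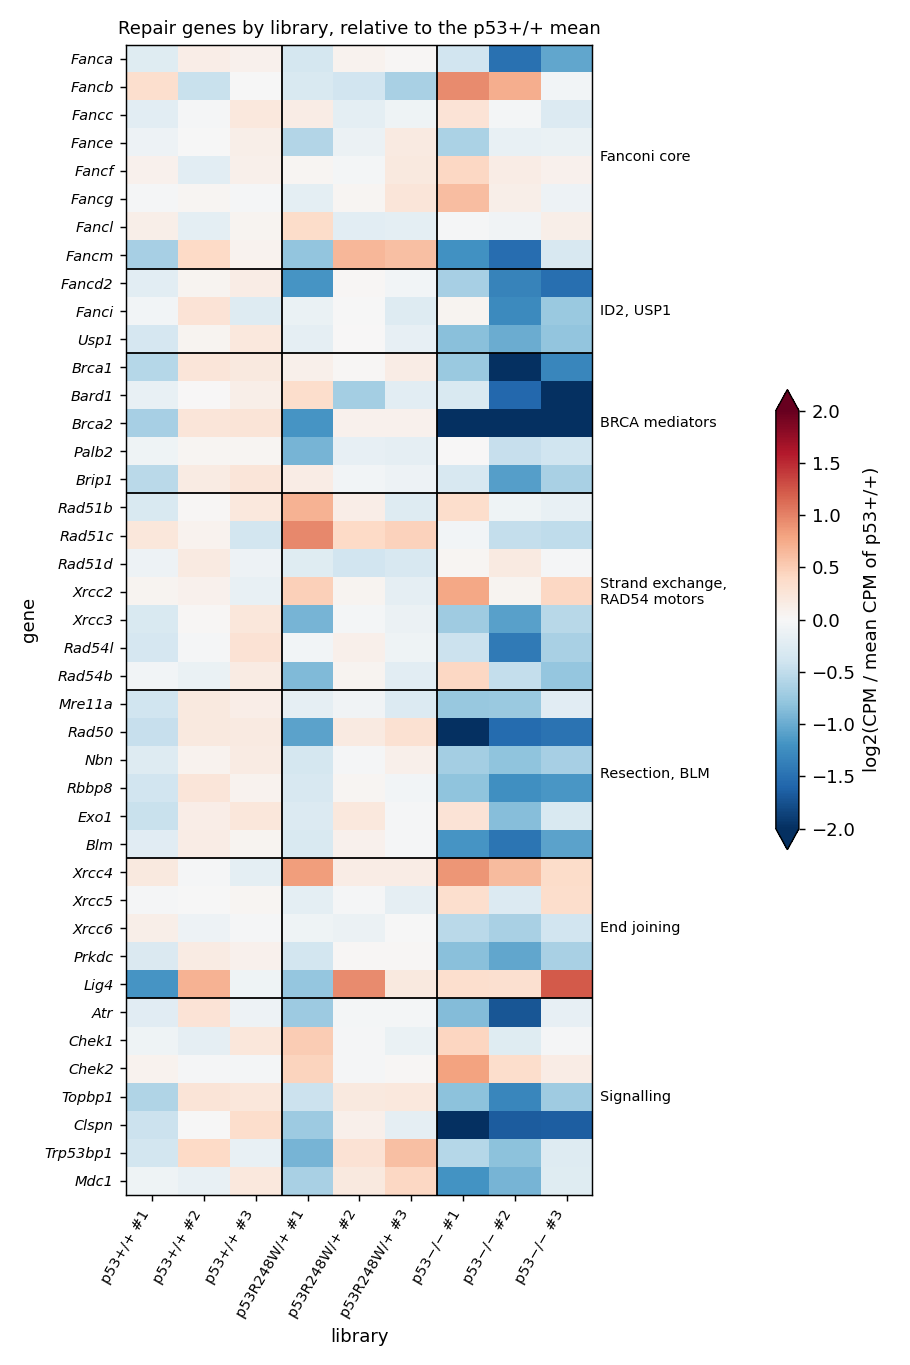
Level of each of the 41 repair genes in each of the 9 libraries, as log2 of the CPM over the mean CPM of the 3 p53+/+ libraries, with rows grouped by role and colours limited to the range shown on the bar. The p53-/- columns are darkest on the low side for Brca2, followed by Rad50 and Clspn, and among the p53R248W/+ columns replicate 1 is low for Brca2, Rad50, and Fancd2 while replicates 2 and 3 stay near p53+/+ for them.

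The promoters of these genes were searched for sequences linked to the cell cycle. E2F factors, which switch on genes at entry into S phase, bind motifs such as TTTCCCGC, TTTGGCGC, TTTCGCGC, and TTTGCCGC. CCAAT boxes are bound by NF-Y, and the element TTTGAA is read by the complexes that time expression in G2 phase. These letters were searched on both strands of RefSeq promoter windows of GRCm38.p6, from 250 bases before to 50 bases after the start of transcription, which were found for 31 of the 41 genes. Of the 31 genes, 9 (29.0%) held one of the E2F sequences in a window, compared with 4.83% of the 9941 tested genes with a window. Counted per window instead of per gene, the share was 2.26% of all 32851 windows. The 9 genes were Bard1, Brca2, Chek2, Clspn, Fancg, Mdc1, Rad51c, Topbp1, and Xrcc6. Of the 9, only Brca2 and Clspn were lower in p53-/- than in p53+/+ LSKs at an adjusted p below 0.05. CCAAT was found for 19 of the 31 genes (61.3%), compared with 37.4% of all windows and 42.8% of the tested genes. TTTGAA was found for 2 genes (6.45%), compared with 17.9% of all windows and 14.4% of the tested genes. The windows of Brca2, Clspn, and Blm, the genes with the smallest p-values in p53-/- LSKs, are shown with that of Chek2, which was higher at an unadjusted p below 0.05. Rad50, Rbbp8, Usp1, and Prkdc, the other genes lower at an adjusted p below 0.05, had no window and were not searched. Capitals mark the E2F sequences and CCAAT on either strand, and each window reads 5′ to 3′ along its gene. The windows lie at chr5:150522371-150522670 (Brca2, plus strand), chr4:126556730-126557029 (Clspn, plus strand), chr7:80534949-80535248 (Blm, minus strand), and chr5:110839733-110840032 (Chek2, plus strand).
Brca2: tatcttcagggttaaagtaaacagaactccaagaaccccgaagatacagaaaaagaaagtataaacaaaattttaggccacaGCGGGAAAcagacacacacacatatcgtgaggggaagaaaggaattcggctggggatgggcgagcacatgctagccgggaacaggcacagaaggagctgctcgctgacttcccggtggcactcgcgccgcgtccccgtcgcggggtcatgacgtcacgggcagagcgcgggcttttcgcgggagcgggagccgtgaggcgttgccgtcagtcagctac
Clspn: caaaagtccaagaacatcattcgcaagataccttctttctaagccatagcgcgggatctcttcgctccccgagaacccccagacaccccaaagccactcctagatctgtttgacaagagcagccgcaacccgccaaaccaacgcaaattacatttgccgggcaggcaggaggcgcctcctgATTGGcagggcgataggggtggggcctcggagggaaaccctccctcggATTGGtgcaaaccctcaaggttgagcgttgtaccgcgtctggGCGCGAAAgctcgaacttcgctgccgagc
Blm: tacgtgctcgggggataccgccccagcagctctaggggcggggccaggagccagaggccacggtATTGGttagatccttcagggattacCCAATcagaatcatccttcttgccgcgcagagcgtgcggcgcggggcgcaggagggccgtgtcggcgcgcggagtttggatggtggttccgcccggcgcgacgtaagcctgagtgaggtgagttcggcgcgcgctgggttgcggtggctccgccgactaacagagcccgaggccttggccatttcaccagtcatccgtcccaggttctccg
Chek2: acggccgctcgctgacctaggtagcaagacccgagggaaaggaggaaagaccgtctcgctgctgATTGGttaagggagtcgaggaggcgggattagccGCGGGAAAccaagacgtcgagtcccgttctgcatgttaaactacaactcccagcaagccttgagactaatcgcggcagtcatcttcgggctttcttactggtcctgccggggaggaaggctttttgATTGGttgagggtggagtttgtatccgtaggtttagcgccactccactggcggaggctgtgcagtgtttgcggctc
Clspn holds an E2F sequence and CCAAT boxes, Brca2 an E2F sequence alone, and Blm CCAAT boxes alone. Chek2 holds both kinds of sequence, as Clspn does, with a positive log2 fold change that did not pass the threshold. A match is a stretch of letters and does not show that a factor is bound.

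The genes of recombination itself held the largest differences. BRCA2 is the mediator that readies resected DNA for the search for its template. Brca2 (NCBI gene 12190, chromosome 5, 150522297 to 150570147 on GRCm38) was read at 25.9, 48.4, and 48.9 CPM in p53+/+ LSKs, at 18.2, 43.8, and 43.4 CPM in p53R248W/+ LSKs, and at 6.64, 8.04, and 10.2 CPM in p53-/- LSKs. All p53-/- libraries lay below every library of the other genotypes. Its mean fell 4.94-fold, from 41.1 ± 13.1 to 8.30 ± 1.80 CPM (SD, n = 3), with a log2 fold change of −2.31 (SE 0.36, adjusted p = 0.0129).

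BRCA1 and its partner BARD1 form a ubiquitin ligase that acts before BRCA2, PALB2 bridges BRCA1 and BRCA2, and BRIP1 is a helicase bound to BRCA1. All 5 genes of this group had negative log2 fold changes in p53-/- LSKs, with a median of −1.14. Brca1 was read at 19.1, 33.7, and 32.4 CPM in p53+/+ LSKs, 30.5, 28.9, and 31.6 CPM in p53R248W/+ LSKs, and 16.9, 6.46, and 11.5 CPM in p53-/- LSKs. The p53-/- libraries were again the lowest, but the spread among them was wide and the adjusted p of 0.0506 missed the threshold (log2 fold change −1.29, SE 0.33). Bard1, at 1.33 to 4.84 CPM in p53-/- and 5.44 to 6.52 CPM in p53+/+ LSKs, and Brip1, at 15.5 to 26.8 and 22.8 to 39.5 CPM, had adjusted p-values of 0.173 and 0.156. Palb2 overlapped between those genotypes, with a log2 fold change of −0.27 (SE 0.25).

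Resection of a broken end to single-stranded DNA precedes recombination. It is begun by the MRE11, RAD50, and NBN complex with CtIP, the product of Rbbp8, and extended by EXO1 or by a nuclease that works with the BLM helicase. All 6 genes of this group had negative log2 fold changes in p53-/- LSKs, with a median of −0.89, and 3 of them passed the threshold. Rad50 (chromosome 11, 53649519 to 53707319) was read at 62.2, 97.6, and 97.1 CPM in p53+/+ LSKs, 40.8, 96.6, and 106 CPM in p53R248W/+ LSKs, and 19.3, 29.3, and 30.9 CPM in p53-/- LSKs (p53-/- against p53+/+ −1.69, SE 0.34, adjusted p = 0.0266). Blm (chromosome 7, 80454993 to 80535148), which also dissolves joined recombination intermediates, was read at 27.4, 35.7, and 33.2 CPM, then 25.9, 34.1, and 31.7 CPM, and then 14.1, 11.7, and 15.3 CPM in the same order of genotypes. Its log2 fold change of −1.23 had an SE of 0.21 and an adjusted p of 0.0151. For both genes the p53-/- libraries did not overlap with either of the other genotypes.

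Rbbp8 (chromosome 18, 11633276 to 11743207) was read at 34.3, 52.5, and 47 CPM in p53+/+ LSKs, 35.6, 46, and 43.1 CPM in p53R248W/+ LSKs, and 25.4, 19, and 19.9 CPM in p53-/- LSKs (−1.06, SE 0.21, adjusted p = 0.0272). Nbn was read at 37.2 to 49.9 CPM in p53+/+ and 25.5 to 28 CPM in p53-/- LSKs, without overlap, and narrowly missed the threshold (−0.72, SE 0.19, adjusted p = 0.0546). Mre11a (−0.55, SE 0.21) and Exo1 (−0.22, SE 0.28) overlapped between these genotypes. The subunits of the one complex thus differed in the size of their log2 fold change, from −1.69 for Rad50 to −0.55 for Mre11a, and this difference between genes was not tested.

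In the ubiquitin switch of the Fanconi pathway, Usp1, which encodes the deubiquitinase, passed the threshold. Usp1 (chromosome 4, 98923810 to 98935543) was read at 158, 207, and 231 CPM in p53+/+ LSKs, 175, 199, and 178 CPM in p53R248W/+ LSKs, and 112, 100, and 115 CPM in p53-/- LSKs (−0.87, SE 0.17, adjusted p = 0.0272). Its libraries did not overlap between p53-/- and the other genotypes. Fancd2, the substrate of the switch, was read at 22.7 to 29.2 CPM in p53+/+ and 9.33 to 16.6 CPM in p53-/- LSKs (−1.12, SE 0.33, adjusted p = 0.0721). Its partner Fanci overlapped, with 38.4 CPM in 1 p53-/- library and 15.3 and 22.1 CPM in the others (−0.54, SE 0.29).

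The 8 genes of the Fanconi core complex had a median log2 fold change of 0.01, and none passed the threshold in either direction. Fanca, a scaffold of the complex, was lower without overlap (20.4 to 26.3 CPM in p53+/+, 8.58 to 18.4 CPM in p53-/-), with an adjusted p of 0.0841. Fancl, the ligase subunit, was read at 31.9 to 39.8 CPM in p53+/+ and 34.7 to 39.4 CPM in p53-/- LSKs (0.01, SE 0.20). Fancc (0.01, SE 0.21), Fancf (0.22, SE 0.19), and Fancg (0.25, SE 0.21) overlapped as well. Fance, the subunit that binds FANCD2, was lower without overlap by 0.28 on the log2 scale, which is close to its SE of 0.22. Fancm, the translocase that recruits the complex to DNA, ranged from 4.2 to 9.67 CPM in p53-/- and from 7.61 to 15.9 CPM in p53+/+ LSKs. Fancb, an X-linked gene of the catalytic module, had a positive log2 fold change of 0.60 (SE 0.30, adjusted p = 0.251).

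Among the strand exchange factors Rad51b, Rad51c, Rad51d, Xrcc2, and Xrcc3 and the motor proteins Rad54l and Rad54b, which help broken DNA to pair with its template, none of 7 genes passed the threshold and the median was −0.19. Rad54l was lower without overlap, at 59.5 to 91.2 CPM in p53+/+ and 28.1 to 55.7 CPM in p53-/- LSKs (−0.77, SE 0.24, adjusted p = 0.0905). Xrcc3 had the same log2 fold change (−0.77, SE 0.26, adjusted p = 0.103) and likewise no overlap. The other 5 genes overlapped, with log2 fold changes from −0.33 for Rad51c to 0.44 for Xrcc2.

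Non-homologous end joining, in which the Ku proteins XRCC5 and XRCC6 hold the broken ends, the kinase encoded by Prkdc binds them, and XRCC4 with LIG4 seals them, had no common direction. Prkdc (chromosome 16, 15637444 to 15842239) passed the threshold at 28.5, 39.3, and 37 CPM in p53+/+ LSKs, 27, 35.6, and 35.3 CPM in p53R248W/+ LSKs, and 19.5, 16.9, and 22.3 CPM in p53-/- LSKs (−0.84, SE 0.21, adjusted p = 0.0494). The margin to the threshold was small. Xrcc6 was lower without overlap (−0.52, SE 0.15, adjusted p = 0.0696), and its partner Xrcc5 was not (0.17, SE 0.19). Xrcc4 was higher without overlap, at 17.2 to 24.7 CPM in p53-/- and 11.7 to 15.3 CPM in p53+/+ LSKs (0.64, SE 0.26, adjusted p = 0.159). Lig4 was read at 0.705 to 3.73 CPM over all 9 libraries, and its log2 fold change of 0.68 was close to its SE of 0.60.

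Among the damage signalling genes, Clspn passed the threshold. Its product claspin carries the signal from ATR to CHK1 at stalled forks. Clspn (chromosome 4, 126556957 to 126594533) was read at 15.2, 20.2, and 25.9 CPM in p53+/+ LSKs, 12.3, 21.9, and 18 CPM in p53R248W/+ LSKs, and 5.06, 6.42, and 6.48 CPM in p53-/- LSKs, without overlap with either (−1.77, SE 0.29, adjusted p = 0.0145). Topbp1, which activates ATR, was lower without overlap (107 to 194 CPM in p53+/+, 66.3 to 100 CPM in p53-/-, adjusted p = 0.0682). Atr and Chek1, which encode the kinases that give and receive this signal, did not pass the threshold, and neither did Chek2. Atr overlapped (−0.78, SE 0.34), Chek1 had a log2 fold change of 0.08 (SE 0.23), and Chek2 was read at 36.4 to 39.3 CPM in p53+/+ and 41.9 to 65.7 CPM in p53-/- LSKs (0.46, SE 0.21, adjusted p = 0.208). The chromatin adaptors Mdc1 (−0.73, SE 0.32) and Trp53bp1 (−0.53, SE 0.34) did not pass the threshold. Atm, the kinase of the parallel pathway and not among the 41 genes, was lower without overlap at 17.7 to 24.3 against 27.5 to 36.9 CPM (−0.62, SE 0.24, adjusted p = 0.156).

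**Figure D2:**
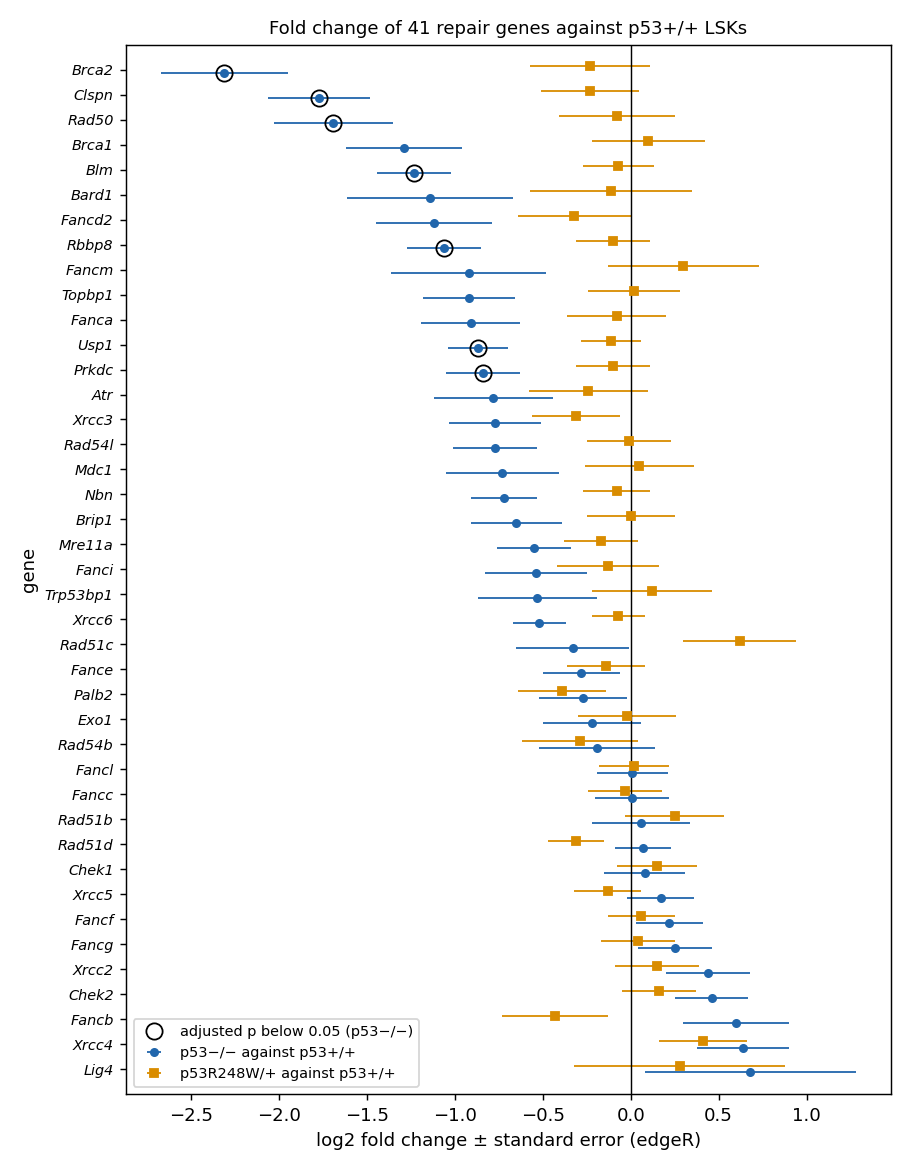
Log2 fold changes of the 41 repair genes with their standard errors as bars, for p53-/- and for p53R248W/+ against p53+/+ LSKs. Circles mark genes with an adjusted p below 0.05, which are 7 in p53-/- and 0 in p53R248W/+, where all estimates lie between −0.43 and 0.62.

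These values compare a gene with itself, and the genes also differ in their level. Per kilobase of gene length in p53+/+ LSKs, Xrcc6 was the most abundant at 113 ± 8.65 CPM per kb (SD, n = 3), followed by Usp1 at 55.3 ± 10.3, Topbp1 at 32 ± 9.58, and Rad54l at 24.3 ± 5.17 CPM per kb. Topbp1 and Rad54l do not differ beyond their SDs. The lowest were Lig4 at 0.392 ± 0.232, Bard1 at 1.1 ± 0.0995, and Rad51c at 1.43 ± 0.288 CPM per kb. Brca2, whose gene length is 11133 bases, stood near the low end on this scale at 3.69 ± 1.18 CPM per kb. No library held fewer than 14 reads of any of the 41 genes.

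In p53R248W/+ LSKs, none of the 41 repair genes differed from p53+/+ LSKs by edgeR at an adjusted p below 0.05, where 0.00792% of all genes did, and DESeq2 gave 0 genes as well. At an unadjusted p below 0.05 the count was also 0, where 0.958% of all genes passed. The median log2 fold change was −0.07 and the 41 values ranged from −0.43 for Fancb to 0.62 for Rad51c. Libraries of the genotypes did not overlap for 3 genes, where this held for 5.04% of all genes. Rad51c was read at 9.16, 6.21, and 6.49 CPM in p53R248W/+ and 5.54, 4.98, and 3.68 CPM in p53+/+ LSKs (SE 0.32, adjusted p = 1). Rad51d, a gene of the same family, was read at 46.5, 41.9, and 44.2 CPM against 51.4, 62.3, and 51 CPM (−0.31, SE 0.16), and Palb2 at 9.92, 16.8, and 16.6 CPM against 17.7, 19.4, and 19.4 CPM (−0.39, SE 0.25). The 3 genes are a share of the 41 close to that of all genes and are given as values only. Of the genes that were lower in p53-/- LSKs, Brca2 had a log2 fold change of −0.23 (SE 0.34) and Rad50 of −0.08 (SE 0.33), so a difference of the size of these SEs was not detectable with 3 libraries in each genotype.

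The direct comparison of the p53R248W/+ with the p53-/- LSKs gave 7 repair genes higher in p53R248W/+ at an adjusted p below 0.05 and none lower, where 2.34% of all genes were higher. They were Brca2 (2.08, SE 0.36, adjusted p = 0.0141), Rad50 (1.62, SE 0.34), Clspn (1.54, SE 0.29), Brca1 (1.39, SE 0.33, adjusted p = 0.0415), Blm (1.16, SE 0.20), Rbbp8 (0.96, SE 0.21), and Usp1 (0.76, SE 0.17). Of these, 6 were also below the threshold in p53-/- against p53+/+ LSKs, a comparison that shares the p53-/- libraries and so is not independent. Brca1 was the gene added, and Prkdc (0.74, SE 0.21, adjusted p = 0.0697) the gene left out. At an unadjusted p below 0.05, 19 genes were higher and 2 lower, where 11.6% and 9.47% of all genes were higher and lower. Without overlap, 15 were higher, where 12.1% of all genes were. The genes lower in p53R248W/+ LSKs were Fancb, at 10.1, 9.63, and 7.95 CPM against 24.1, 20.6, and 12 CPM in p53-/- (−1.03, SE 0.30, adjusted p = 0.0778), and Rad51d (−0.38, SE 0.16, adjusted p = 0.204).

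The libraries of a genotype were not equally spread over these genes. Replicate 1 of p53+/+ held the lowest p53+/+ value for 28 of the 41 genes, and replicate 1 of p53R248W/+ the lowest value of its genotype for 23. Replicate 2 of p53-/- held the lowest p53-/- value for 23 genes. Leaving out replicate 1 of p53R248W/+ raised the number of repair genes below the threshold in p53-/- against p53+/+ LSKs from 7 to 14, and the number over the whole table from 442 to 1485, although that library belongs to neither genotype. All 9 libraries share the estimate of the spread in this fit, and its part in the change was not tested. The number was 0 without replicate 3 of p53+/+ (37 over the whole table), replicate 1 of p53-/- (53), or replicate 2 of p53-/- (39). It was 1 without replicate 2 of p53+/+ (46) and 3 without replicate 3 of p53-/- (103), so the calls fell over the whole table as well. The number of repair genes was 6 without replicate 2 or replicate 3 of p53R248W/+ (278 and 294) and 10 without replicate 1 of p53+/+ (499). The log2 fold changes moved less, from −2.55 to −2.15 for Brca2 and from −1.33 to −1.12 for Blm, and none of the 22 genes with an unadjusted p below 0.05 changed sign in these fits. In p53R248W/+ against p53-/- LSKs all libraries gave 7 repair genes and 434 over the whole table. The number was 0 without replicate 2 or 3 of p53R248W/+ (78 and 77 over the whole table) or replicate 2 of p53-/- (100). It was 2 without replicate 1 or 3 of p53-/- (164 and 102) and 14 without replicate 1 of p53R248W/+ (1559).

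The cycling state of the cells was read from the RNA of 70 genes of S phase and of G2 and mitosis, none of which is among the 41 repair genes. By flow cytometry with Ki67 and DAPI, the paper describes LSKs as less quiescent without p53. The RNA of these lists went the other way, and the reason was not tested. In p53-/- against p53+/+ LSKs, 68 of the 70 had negative log2 fold changes, 11 were below the threshold, and the median was −0.62. The 35 genes of G2 and mitosis were all lower by sign, with 10 below the threshold and a median of −0.94, and the 35 genes of S phase and replication had 1 below the threshold and a median of −0.34. Mki67, a marker of cycling cells, was read at 68.3, 108, and 121 CPM in p53+/+ LSKs, 28.2, 124, and 134 CPM in p53R248W/+ LSKs, and 17.1, 19.7, and 22 CPM in p53-/- LSKs (−2.34, adjusted p = 0.0255). Its replicate 1 of p53R248W/+ lay far below the other libraries of that genotype, as that of Brca2 and of Rad50 did. Top2a, the topoisomerase of mitotic chromosomes, was lower as well (−1.64, adjusted p = 0.0234), while Ccnb1 (−0.65, adjusted p = 0.156) and Cdk1 (−0.50, adjusted p = 0.241), which encode the mitotic cyclin and its kinase, did not pass the threshold. The replication genes Pcna (−0.00, adjusted p = 0.992), Tyms (−0.05, adjusted p = 0.93), Rrm2 (−0.26, adjusted p = 0.534), and Mcm2 (−0.52, adjusted p = 0.185) did not pass either. Of 16 genes of quiescence and cycle inhibition, 10 had positive log2 fold changes and the median was 0.19. Apart from Cdkn1a, the gene below the threshold was Txnip, which encodes an inhibitor of thioredoxin (1.37, adjusted p = 0.0455), which is named after its value was seen. The cycle inhibitor Cdkn1b had a log2 fold change of 0.39 (adjusted p = 0.563) and Cdkn1c, a marker of quiescent stem cells, of 0.51 (adjusted p = 0.328). In p53R248W/+ against p53+/+ LSKs no cycling gene passed the threshold and the median was 0.02. In p53R248W/+ against p53-/- LSKs 14 of the 70 were higher at the threshold, with a median of 0.66.

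**Figure D3:**
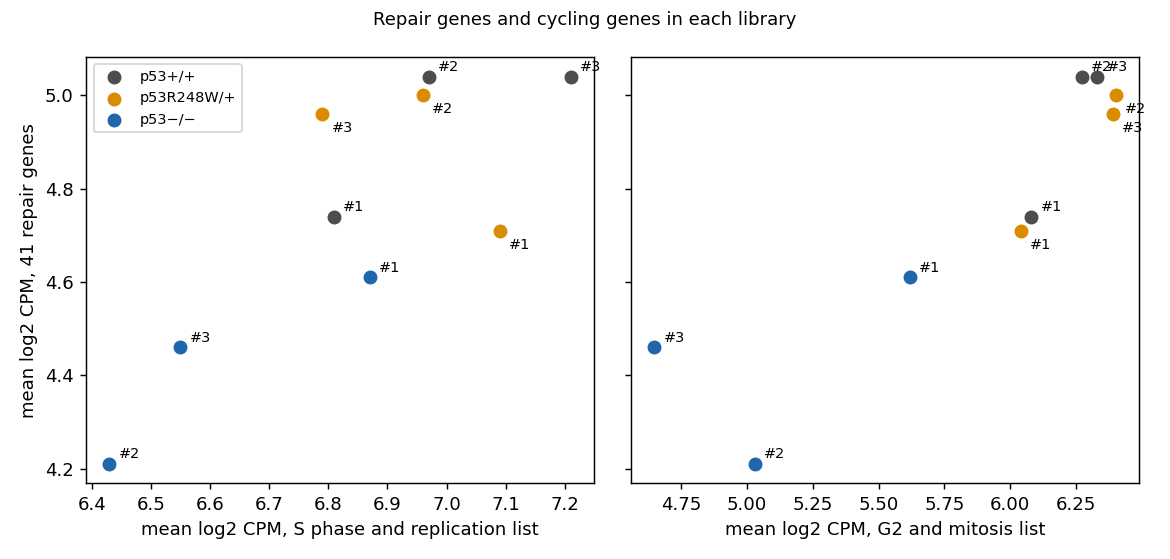
Mean log2 CPM of the 41 repair genes in each of the 9 libraries against the mean log2 CPM of the S phase genes and of the genes of G2 and mitosis in the same library, with 1 point a library and colours for the genotype. The p53-/- libraries are the lowest for the repair genes, at 4.21 to 4.61, and along the G2 and mitosis axis, while replicate 1 of p53-/- overlaps the other genotypes along the S phase axis.

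Averaged over the 41 genes, the level in p53+/+ LSKs was 4.74, 5.04, and 5.04 log2 CPM, in p53R248W/+ LSKs 4.71, 5.0, and 4.96, and in p53-/- LSKs 4.61, 4.21, and 4.46. The p53-/- mean was lower than the p53+/+ mean by 0.51 (SDs 0.20 and 0.18, n = 3 each). The mean of the genes of G2 and mitosis was lower by 1.13 and that of the S phase genes by 0.38, so the repair genes lay between them. The mean of the repair genes minus that of the cycling genes was −1.71, −1.58, and −1.73 in p53+/+ LSKs, −1.85, −1.68, and −1.63 in p53R248W/+ LSKs, and −1.63, −1.52, and −1.14 in p53-/- LSKs. Relative to both cycling lists together the repair genes were thus not lower in p53-/- LSKs. The difference was 0.24 (SDs 0.26 and 0.08), with the highest value in replicate 3 of p53-/-. Beside the S phase genes alone, the repair genes fell by more, 0.51 against 0.38, and this was not tested.

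The fit was repeated with the cycling level of each library as a covariate. The genotypes differ in this level, so that the covariate takes much of the comparison with it, and only 1 gene of the whole table was then below the threshold, and no repair gene. The median log2 fold change of the repair genes in p53-/- against p53+/+ LSKs went from −0.54 to −0.09, with 22 lower and 19 higher. Among the genes with an unadjusted p below 0.05 without the covariate, some kept their estimate. Brca2 stood at −2.28 (SE 0.88), Rad50 at −1.97 (SE 0.81), Clspn at −1.62 (SE 0.67), and Blm at −1.05 (SE 0.43), and Mdc1 moved further from 0, from −0.73 to −1.33 (SE 0.69). Others came close to 0, with Brca1 at −0.25 (SE 0.55), Fancd2 at −0.09 (SE 0.56), and Rad54l at −0.07 (SE 0.44), and Fanca (0.03), Brip1 (0.11), and Bard1 (0.27) changed sign. Of the genes that had not passed the unadjusted threshold, Rad54b (from −0.19 to 1.02), Exo1 (from −0.22 to 0.83), Fanci (from −0.54 to 0.31), Palb2 (from −0.27 to 0.28), and Fancl (from 0.01 to −0.18) changed sign as well. At an unadjusted p below 0.05, 6 genes passed, of which Brca2, Rad50, Blm, and Clspn were lower and Fancg and Chek2 higher. With SEs of this size the genes that kept and those that lost their estimate were not tested against each other, and the part of cycling in the result cannot be told apart from that of the genotype.

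**Figure D4:**
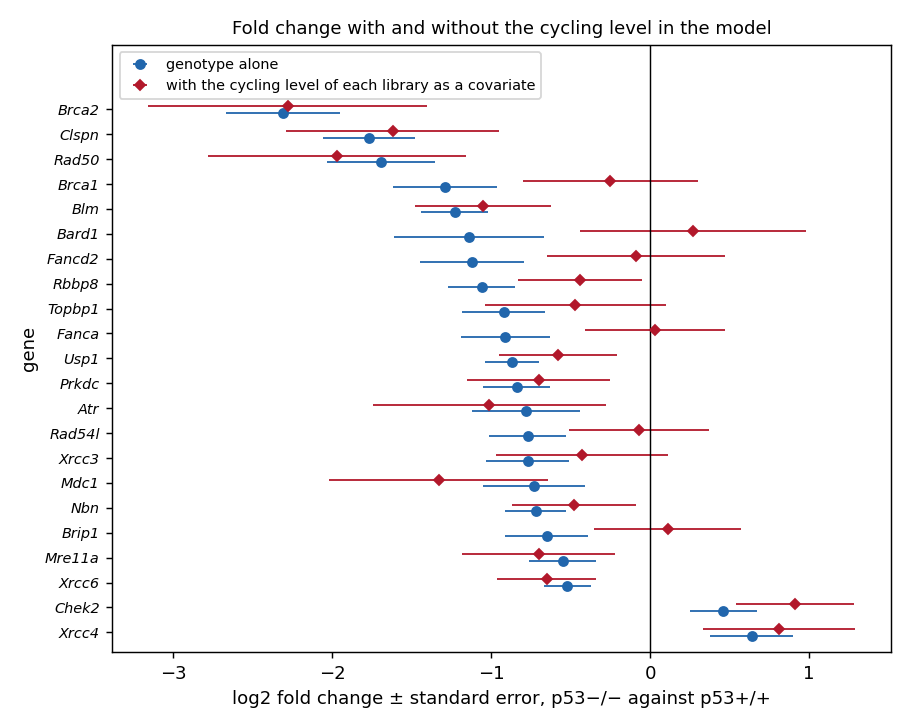
Log2 fold changes in p53-/- against p53+/+ LSKs without and with the cycling level as a covariate, for the 22 repair genes with an unadjusted p below 0.05 without it, with standard errors as bars. Brca2, Rad50, Clspn, and Blm stay far from 0 while Fancd2, Rad54l, Fanca, and Brip1 move to near 0.

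The 88 other repair genes tested were from the same pathways and were chosen by name, with earlier results known. Of them, 9 were below the threshold in p53-/- against p53+/+ LSKs, all lower. The list's median log2 fold change was −0.30, and 67 genes were lower by sign. The 6 with the smallest p-values were Smc6, a subunit of the complex that untangles recombining chromosomes (−1.21, adjusted p = 0.026), Rad18, the ligase that marks PCNA (−0.91, adjusted p = 0.0272), Lig1, the replicative ligase (−1.10, adjusted p = 0.0274), Gen1, a resolvase of recombination junctions (−1.55, adjusted p = 0.0294), Rnf168, a ligase that marks chromatin at breaks (−0.93, adjusted p = 0.0295), and Dntt (−0.98, adjusted p = 0.0384). Dntt encodes the lymphoid polymerase TdT and is also a marker of multipotent progenitors with lymphoid potential. No gene of this list passed in p53R248W/+ against p53+/+ LSKs. In p53R248W/+ against p53-/- LSKs 7 passed, all higher, and the 6 with the smallest p-values were Rnf168 (1.10, adjusted p = 0.016), Smc6 (1.20, adjusted p = 0.0249), Gen1 (1.51, adjusted p = 0.0309), Rif1, which blocks resection (1.06, adjusted p = 0.0384), Rad18 (0.77, adjusted p = 0.0435), and Dntt (0.92, adjusted p = 0.0466).

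Gene length moved with the result. Across the 41 genes, which are not independent replicates, Spearman's rho between gene length and the log2 fold change in p53-/- against p53+/+ LSKs was −0.54, compared with −0.13 over all 12625 genes and −0.38 over the 70 cycling genes. The 20 repair genes longer than 4081 bases had a median log2 fold change of −0.87 and the other 21 one of 0.01. The mean of the longer genes was 4.65, 5.13, and 5.09 log2 CPM in p53+/+ LSKs, 4.51, 5.03, and 5.03 in p53R248W/+ LSKs, and 4.24, 3.76, and 4.12 in p53-/- LSKs. Replicate 1 of p53+/+ and of p53R248W/+ lay below the other libraries of their genotypes in this mean, and the p53-/- libraries lay below them all. The mean of the shorter genes was 4.82, 4.96, and 4.99, then 4.90, 4.97, and 4.90, and then 4.96, 4.64, and 4.79 in the same order, with overlap between the genotypes. The trend on gene length was also removed from each library, a step chosen after seeing the data. In that fit 10 repair genes were below the threshold, all lower, where 9.39% of the genes in that fit passed in either direction. The median of the 41 repair genes was −0.38. In that fit Prkdc, the longest of them at 12674 bases, had a log2 fold change of −0.30 and was no longer below the threshold, and Xrcc6, Nbn, Fancd2, and Topbp1 were added. The part of length in the result was otherwise not tested.

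**Figure D5:**
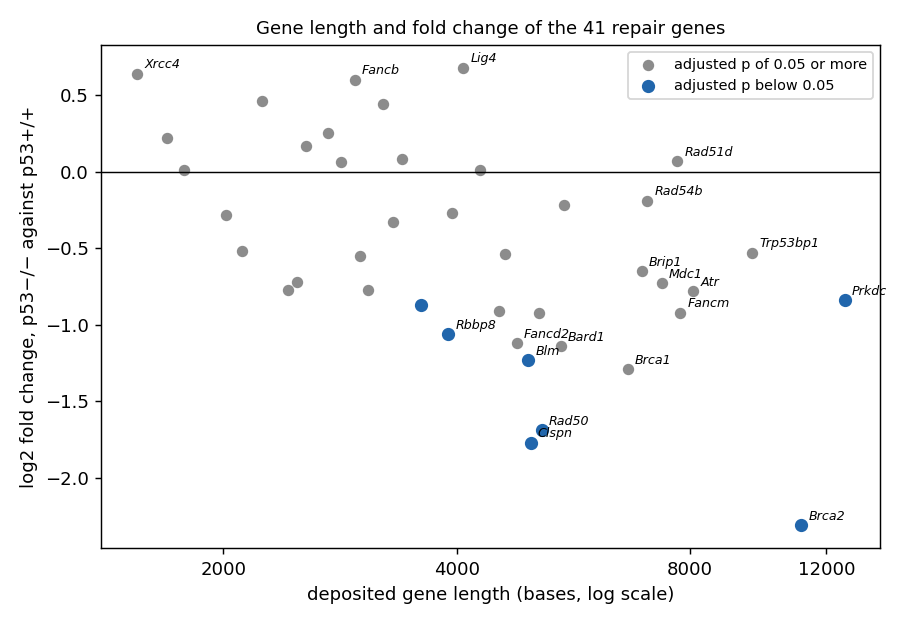
Log2 fold change in p53-/- against p53+/+ LSKs against gene length in bases on a log axis, with 1 point for each of the 41 repair genes and blue points for an adjusted p below 0.05. Genes longer than 4081 bases have a median of −0.87, and Prkdc and Brca2, at 12674 and 11133 bases, are at the right edge.

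Markers of the cell types within the LSK gate also differed between the genotypes. The 14 genes of long-term stem cells summed to 1664 to 1784 CPM in p53-/- LSKs, above 798 to 1183 CPM in p53+/+ and 871 to 1080 CPM in p53R248W/+ LSKs. Of them 11 had positive log2 fold changes in p53-/- against p53+/+ LSKs and 1, Hlf, was past the threshold (1.14, adjusted p = 0.0242). Over all 12625 genes tested, 158 were higher and 284 lower at the threshold in this comparison. The 10 genes of multipotent progenitors summed to 3734 to 4381 CPM in p53-/- LSKs, below 5118 to 5949 CPM in p53+/+ and 5365 to 5593 CPM in p53R248W/+ LSKs. In p53-/- against p53+/+ LSKs 8 of them were lower by sign and 1 was below the threshold. This was Dntt, which is also counted among the other repair genes. In p53R248W/+ against p53-/- LSKs, 4 genes of long-term stem cells were lower at the threshold. Higher were 2 genes of multipotent progenitors, 2 of granulocytes and monocytes, and 1 of T and NK cells. Over all 12625 genes tested, 139 were lower and 295 higher at the threshold in this comparison. Granulocyte and monocyte genes summed to 2121 to 2595 CPM in p53-/-, 2957 to 7098 CPM in p53+/+, and 4372 to 9104 CPM in p53R248W/+ LSKs, with none of 10 below the threshold in p53-/- against p53+/+. The sums of the erythroid genes (24 to 84.5 CPM, over 6 genes) and B cell genes (74.6 to 131 CPM, over 6 genes) overlapped between the genotypes. The 5 megakaryocyte genes summed to 107 to 124 CPM in p53-/- and 120 to 183 CPM in p53+/+ LSKs, and the 5 T and NK cell genes to 210 to 280 and 324 to 338 CPM. Their part in the repair gene result was not tested. Reads of Y-linked genes above 10 CPM were found in 1 of 3 p53+/+, 2 of 3 p53R248W/+, and 0 of 3 p53-/- libraries. With their level as a covariate, 6 repair genes passed the threshold in p53-/- against p53+/+ LSKs, with 372 genes over the whole table. In p53R248W/+ against p53-/- LSKs 0 repair genes passed, with 136 over the whole table. The fits without this covariate gave 442 and 434 over the whole table, so the calls fell there as well.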

How the data were processed

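RNA was sequenced from LSKs of 3 genotypes, with 3 libraries each. The authors deposited raw counts per gene, without normalization, made per the submitters' processing notes with STAR 2.5.2b and featureCounts of Subread 1.5.0 on mm10. The annotation and the strand setting are not given in the sources used here, so reads of overlapping genes on opposite strands may be shared. The methods describe oligo(dT) selection and random hexamer priming, while the labels name a SMART-Seq kit. The table also holds gene lengths, used here, and columns of the authors' own comparisons (fold change, p-value, false discovery rate), not used here. The ChIP-seq samples were not analysed here. Total counts had a median of 20116602, and every gene had at least 37 counts in the 9 libraries together. No count column was left unmapped, no gene lacked a symbol, and libraries of a genotype differed by more than the counting error for every pair, with a chi-square per gene of 24.6 to 151.

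Genes were filtered with filterByExpr, scaled by TMM, and tested with edgeR 4.0.16 in R 4.3.3 (1 quasi-likelihood fit to all 9 libraries, Benjamini-Hochberg adjustment, two-sided, threshold 0.05), and checked first on simulated counts. SEs were computed from the log2 fold change and its F. Mean levels are of log2 CPM with a prior count of 0.5. Alternatives were limma-voom (limma 3.58.1), DESeq2 1.42.0, other size factors and filters, a replicate block, Y-linked or cycling level as a covariate, the 2 genotypes compared alone, leaving out each library, and, chosen after seeing the data, removal of the trend on length, or on length and GC content, with a loess span of 0.5. Same-numbered libraries of p53+/+ and p53R248W/+ deviated together with correlations of 0.312, 0.517, and 0.0336, where differently numbered ones gave −0.433 to 0.0191. Same-numbered libraries of p53-/- and the other genotypes gave −0.0977 to 0.107, so the numbers were not taken to pair libraries in the main fit. Whether p53+/+ and p53R248W/+ libraries were prepared together and p53-/- libraries apart is not given. If they were, preparation and the loss of p53 cannot be told apart. Genes named were the 41 genes, Atm, and Trp53, up to 6 other repair genes past the threshold in each comparison, and fixed cycling and quiescence genes, and 1 further gene of this rule is not reported here. Hlf and the genes of the marker lists serve as checks. The 41 genes and all lists were chosen with earlier results of these data known. Positions and promoter windows are from RefSeq on GRCm38.p6, and GC content is from GENCODE M21 transcripts. Python 3.11.15 drew the figures.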

Additional observations from a re-analysis of the deposited data

How the results depend on the processing

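For p53-/- against p53+/+ LSKs, 7 of the 41 repair genes and 9 of the 88 other repair genes were below the threshold. The comparison gave 442 genes of the whole table in either direction, and the whole-table numbers and percentages that follow also count both directions. DESeq2 gave 15 and 21 (1552 of the whole table), the fit to the 6 libraries of these genotypes 11 and 16 (894), the cycling covariate 0 and 0 (1), and removal of the trend on length and GC content 11 and 19 (1387, 11.4% of the genes in that fit). Removal of the length trend alone gave 17 other repair genes (1139, 9.39% of the genes in that fit). With the replicate number as a block, the counts were 9 and 16 (882). The block gave 7 repair genes in p53R248W/+ against p53-/- LSKs (672 of the whole table) and 0 in p53R248W/+ against p53+/+ LSKs (2). For p53R248W/+ against p53-/- LSKs, 7 and 7 were past the threshold, with 434 of the whole table. DESeq2 gave 14 and 19 (1325), the Y-linked covariate 0 and 2 (136), and the cycling covariate 0 and 0 (1). The 6 libraries alone gave 3 and 4 (208), and removal of the length trend 8 and 14 (860). Removal of the trend on length and GC content gave 10 and 15 (1090, 8.98%). Among the 14 genes of DESeq2, 13 were higher and 1, Fancb, was lower. Leaving out each library in turn gave 0 to 14 repair genes and 0 to 19 other repair genes in each of these comparisons, and 0 to 0 of both in p53R248W/+ against p53+/+ LSKs. The medians ranged from −0.68 to −0.44, from −0.17 to 0.01, and from 0.32 to 0.58 in p53-/- against p53+/+, p53R248W/+ against p53+/+, and p53R248W/+ against p53-/- LSKs. The cycling covariate moved the median to −0.09 in the first and 0.07 in the last. Among the repair genes with an unadjusted p below 0.05, it reversed Fanca (0.03), Bard1 (0.27), and Brip1 (0.11) in the first and Fanca (−0.11), Fancd2 (−0.23), Bard1 (−0.35), and Brip1 (−0.09) in the last. The cause of these changes was not tested. Lig4, Bard1, and Rad51c had the fewest reads, and groups of 3 libraries limit what differences could be detected.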
